A study of Mus musculus with 12 samples.

Results

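The vehicle libraries are the RNA-seq profiles of bone marrow cells that were grown with GM-CSF and IL-6 and received only the vehicle. They were chosen by their sample labels, which put 4 of the 12 libraries of the series in the vehicle group, and no measured value entered the choice. The cells came from wild-type C57BL/6 mice and were cultured in RPMI with fetal bovine serum, GM-CSF, IL-6 and 0.1% DMSO as the vehicle; whether the treated cultures also held DMSO is not given in the sources used here. They were harvested on day 5. The medium was replaced on day 3 according to the sample labels, whereas the methods state a change every other day. The series used this culture to generate myeloid-derived suppressor cells (MDSCs) and to compare vehicle with indole-3-propionic acid; that comparison was not made here. The cells were sequenced in bulk without sorting, so a low level of a marker cannot be told apart as fewer cells of that type or less RNA per cell. Nothing in the labels states that the 4 libraries came from separate animals or cultures, and the spread between them may be technical.

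GM-CSF acts through a receptor made of a specific alpha chain and a beta chain that IL-3 and IL-5 also use, and drives survival and differentiation of granulocytes, macrophages and dendritic cells. IL-6 binds its receptor, which signals through gp130, JAK kinases and STAT3, and together with GM-CSF it is used to raise MDSCs from marrow. MDSCs are immature myeloid cells of a granulocytic kind, which carry Ly6G, and of a monocytic kind, which carry high Ly6C. Neutrophil precursors fill their granules in order: primary granules hold myeloperoxidase and serine proteases, secondary granules hold lactoferrin and lipocalin, and cells that have left the cell cycle carry *S100a8*, *S100a9* and the receptor *Cxcr2*.

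Library totals, the reads assigned to genes, ran from 22417710 to 26442653. Values are given as counts per 1000000 of the library total (CPM), and, where genes are compared with each other, as TPM, the counts per kilobase of exon scaled to a sum of 1000000. Unless stated otherwise, a value is the mean ± SD over the 4 libraries (n = 4). Of 54532 genes in the table, 31598 had no read in any vehicle library and 11926 reached 1 CPM in each of the 4, of which 10892 were protein coding. Among those 11926 genes the median level was 31.2 CPM and 21.2 TPM. Of all 54532 genes, 21.9% reached 1 CPM, 15.6% reached 10 CPM and 3.77% reached 100 CPM in each of the 4 libraries. A gene with 0 counts is below 0.113 to 0.134 CPM, the level of 3 counts in these libraries, and this limit covers counting error only.

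The libraries were alike in which genes they held and differed in a trend with gene length. Between replicates 1 and 2, 4 of the 8500 genes with at least 10 CPM in every library differed by 2-fold or more, and between replicates 2 and 4 it was 179 (2.11%). No library was a copy of another, since every pair differed by far more than counting error (chi-square per gene between 9.73 and 61.9). Replicate 4 stood apart: with genes split by exon length into 10 equal bins, those in the shortest bin had a median log2 deviation of 0.15 from their mean over the libraries in replicate 4 and of -0.10 in replicate 2, and those in the longest bin had -0.24 and 0.15. Counts that rest on replicate 4 are therefore also given with this trend subtracted, as are some single genes.

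Promoter sequences are given for genes on which the levels described here turn: the second most abundant message per length, a pair of neighboring granule genes, and the high and the low member of a pair of Ly6c and of lysozyme paralogs. Each is the 150 bases before the RefSeq gene start (GRCm38.p6), read 5′ to 3′ on the gene's own strand. For *S100a8*, capitals mark TATAAA, and it starts 30 bases before the gene start. For *Elane* and *Prtn3*, neighboring primary granule genes, and for *Ly6c2*, capitals mark GAGGAAG, a sequence that the myeloid factor PU.1 is known to bind; *Ly6c1* is the paralog of *Ly6c2* that was barely expressed. For *Lyz2* and *Lyz1*, lysozyme paralogs at very different levels, capitals mark the bases at which the pair differ.
S100a8 (chr3:90668921-90669070, plus strand): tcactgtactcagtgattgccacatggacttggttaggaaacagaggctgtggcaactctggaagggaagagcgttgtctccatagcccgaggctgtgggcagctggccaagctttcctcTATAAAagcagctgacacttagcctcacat
Elane (chr10:79886162-79886311, plus strand): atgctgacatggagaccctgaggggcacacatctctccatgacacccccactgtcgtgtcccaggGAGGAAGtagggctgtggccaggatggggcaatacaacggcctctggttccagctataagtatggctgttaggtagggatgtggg
Prtn3 (chr10:79879517-79879666, plus strand): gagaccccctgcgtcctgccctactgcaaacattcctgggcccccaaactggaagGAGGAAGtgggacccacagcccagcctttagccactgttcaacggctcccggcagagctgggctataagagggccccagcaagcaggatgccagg
Ly6c2 (chr15:75111972-75112121, minus strand): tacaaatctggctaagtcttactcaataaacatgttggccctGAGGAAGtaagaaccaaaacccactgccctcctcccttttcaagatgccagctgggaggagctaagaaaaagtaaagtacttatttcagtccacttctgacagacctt
Ly6c1 (chr15:75048838-75048987, minus strand): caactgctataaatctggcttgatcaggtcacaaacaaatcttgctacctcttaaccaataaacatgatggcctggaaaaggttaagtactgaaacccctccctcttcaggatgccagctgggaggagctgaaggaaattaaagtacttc
Lyz2 (chr10:117282273-117282422, minus strand): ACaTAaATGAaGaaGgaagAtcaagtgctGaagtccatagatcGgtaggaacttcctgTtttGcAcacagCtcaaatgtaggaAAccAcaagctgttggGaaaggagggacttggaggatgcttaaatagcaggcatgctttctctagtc
Lyz1 (chr10:117292869-117293018, minus strand): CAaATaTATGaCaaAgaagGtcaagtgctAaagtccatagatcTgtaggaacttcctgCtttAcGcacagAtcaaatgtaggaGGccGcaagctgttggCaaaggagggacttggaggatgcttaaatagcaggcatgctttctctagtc

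*Lyz1* and *Lyz2* differed at 21 of these 150 bases (86% identical), and the 50 bases nearest the gene start were the same in both. GAGGAAG, searched on both strands, began 85 bases before the start of *Elane*, 95 bases before that of *Prtn3* and 108 bases before that of *Ly6c2*, and these letters were not in the printed window of *Ly6c1*. Over the 27025 genes with a RefSeq promoter of 300 bases (250 before and 50 after the start), TATAAA was found on either strand in 15.7%, GAGGAAG in 15.4% and TTGCNNAA, a core recognized by C/EBP factors, in 12.2%. Of the 100 protein-coding genes with the highest TPM, 71 had a promoter in the table, and 26.8% of these held TATAAA, 15.5% GAGGAAG and 18.3% TTGCNNAA. Within these 300 bases, *Ly6c1* held TATAAA and *Ly6c2* did not, and *Lyz1* held TTGCNNAA and *Lyz2* did not. These matches are descriptions of letters and were not tested as binding sites.

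The most abundant messages were those of granulocytic and monocytic cells, beside cytoskeletal and translation genes. *Actb*, the cytoplasmic actin, took the most counts by the mean, 8398 ± 199 CPM, and was even between libraries. In replicates 3 and 4 *S100a9* exceeded it. *S100a9* (ENSMUSG00000056071, chr3:90692632-90695721), one chain of calprotectin, a calcium-binding alarmin of neutrophils and monocytes, followed with 6731, 6940, 8803 and 9790 CPM in replicates 1 to 4. Replicates 3 and 4 were thus the higher ones. Its partner *S100a8* (ENSMUSG00000056054, chr3:90668978-90670035) had 3762, 4069, 4951 and 5685 CPM, with the libraries in the same order. *Chil3*, a chitinase-like protein of monocytes and alternatively activated macrophages also known as Ym1, had 5969 ± 177 CPM and *Ngp*, the neutrophilic granule protein, 5500.3 ± 585. *Lyz2*, the lysozyme of myeloid cells, had 5303 ± 218 CPM and *Ltf*, the iron-binding lactoferrin of secondary granules, 3946 ± 277.

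Of the 25 genes with most counts, 5 belonged to the neutrophil lists (*S100a8*, *S100a9*, *Ngp*, *Ltf* and *Lcn2*). *Thbs1*, which encodes the matrix protein thrombospondin, had 4779 ± 477 CPM and *Mmp12*, the macrophage elastase, 3151 ± 123. *Csf2rb*, the beta chain of the receptor for the GM-CSF in the medium, stood at 2954 ± 351 CPM, and *Cd74*, the invariant chain of MHC class II, at 2610 ± 190. The chemokine *Ccl6* had 2776 ± 274 CPM, *C3*, the central complement component, 2329 ± 265, and *Lcn2*, the siderophore-binding lipocalin, 2429 ± 231. Genes of general cell function filled most other places: *Eef1a1* and *Eef2* of translation elongation, *Fth1*, the ferritin heavy chain, *Psap*, the precursor of lysosomal saposins, *Pkm* of glycolysis, the chaperone *Hsp90ab1*, and *Tmsb4x*, *Lcp1*, *Actg1* and *Flna* of the actin cytoskeleton.

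Counts were spread over many genes. The 25 genes with most counts held 10.5 ± 0.494% of all counts, and 850 ± 57 genes were needed to hold 50%. Replicate 4 was the most concentrated, with 50% of its counts in 774 genes, and replicate 2 the least, with 906. Mitochondrially encoded genes held 0.963 ± 0.251%, from 0.674% in replicate 4 to 1.28% in replicate 2, and *mt-Co1*, a subunit of cytochrome c oxidase, ranged from 2690 to 4872 CPM in the same order. *mt-Co1* shares 51.1% of its 50-base stretches with other gene models, on which reads of mitochondrial sequence may also have been counted, so its level and the mitochondrial share are uncertain. Ribosomal protein genes held 3.51 ± 0.450%, here with replicate 4 highest at 4.11%. Hemoglobin genes together held 6.80e-05% of counts, though their near-identical copies share sequence and reads that match several genes may not have been counted.

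Per length, calprotectin led. *S100a9* had 39109, 40236, 49395 and 52575 TPM in replicates 1 to 4, and *S100a8* had 16442, 17745, 20893 and 22966. Replicates 3 and 4 lay above replicates 1 and 2 for both. The next protein-coding genes were *Ngp* (13232 ± 955 TPM), *Lyz2* (11866 ± 220 TPM), *Chil3* (10776.5 ± 329.5 TPM), *Actb* (9236 ± 174 TPM) and *Tmsb4x* (8077 ± 586 TPM). Of the 25 genes with most counts, 15 were also among the 25 protein-coding genes highest per length. Places were taken there by short messages such as *Rplp1*, *Rplp0* and *Rps3a1* of the ribosome, *B2m*, the light chain of MHC class I (3035 ± 289 TPM), *Lgals3*, the galectin of macrophages (2900 ± 181 TPM), *Ifitm1*, an interferon-inducible membrane protein (3716 ± 457 TPM), *S100a11* (3563 ± 258 TPM), and *Spp1*, osteopontin (3105 ± 670.5 TPM). Of the 25 genes of any kind highest per length, 5 were not protein coding, among them 3 pseudogenes on chromosome 1 named *Gm10925*, *Gm29216* and *Gm28661*. Of their 50-base stretches, 100%, 97.1% and 100% also occur in the mitochondrial *mt-Atp6*, *mt-Co1* and *mt-Co2*, so that their reads cannot be told from mitochondrial ones. *Chil3* shares 16.9% of its 50-base stretches with the neighboring *Chil4*, and *Lyz2* shares 15.4% with *Lyz1*, so reads from these stretches cannot be placed on one copy.

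**Figure D1:**
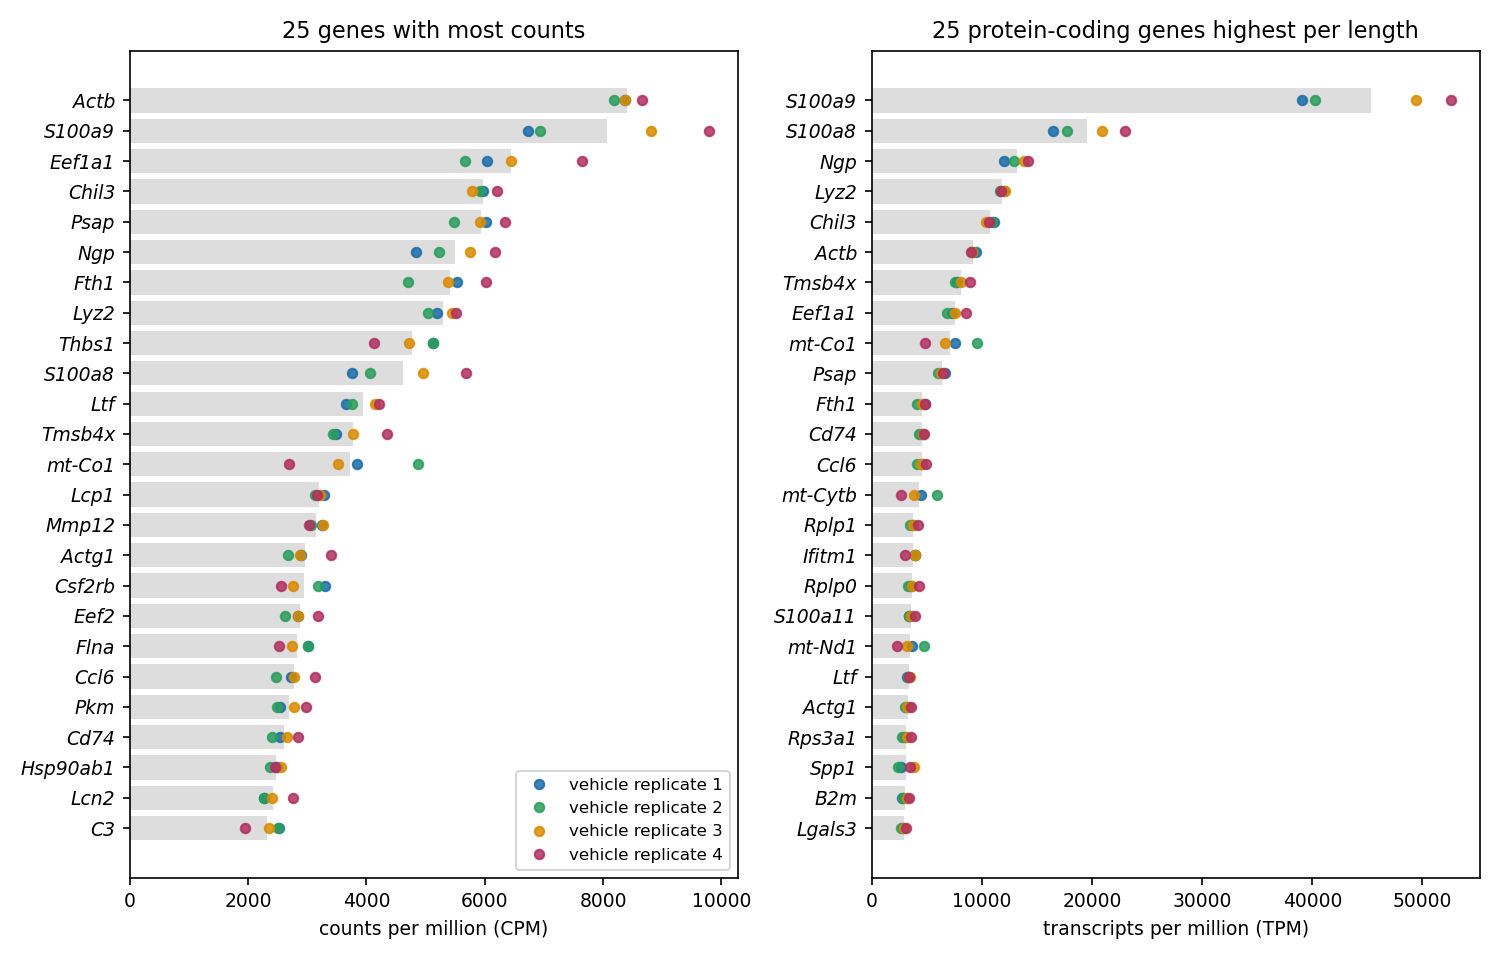
Left, the 25 genes with most counts (CPM); right, the 25 protein-coding genes highest per length (TPM). Bars are means over the 4 vehicle libraries and points are single libraries. *S100a9* reached 45329 ± 6675 TPM with replicates 3 and 4 above replicates 1 and 2, whereas *Actb* spread by 174 TPM (SD).

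Markers of neutrophil maturation were detected at every stage. All 5 primary granule, 9 secondary granule and 12 mature neutrophil markers were at or above 1 CPM in every library. Summed over the list, mature neutrophil markers reached 58692, 61308, 73553 and 78867 TPM in replicates 1 to 4, of which *S100a9* and *S100a8*, which monocytes also express, made up 95.2%. The other 10 markers summed to 3141, 3327, 3264 and 3326 TPM, alike in the 4 libraries. Secondary granule markers reached 25382 ± 1453 TPM and primary granule markers 3367 ± 430 TPM, so the secondary sum was 7.59 ± 0.581 times the primary sum. *Ngp* made up 52.1% of the secondary sum, and without it the ratio was 3.64 ± 0.312. Replicate 4 was highest for 5 of 5 primary, 8 of 9 secondary and 8 of 12 mature markers, against 31.9% of all 11926 detected genes. With the trend in gene length subtracted, the corresponding counts in replicate 4 were 4, 6 and 5, against 35.2% of the 8500 genes with at least 10 CPM in every library. Without replicate 4, the mean sum went from 14205 to 13240.2 CPM for mature markers and from 1917 to 1792 CPM for primary granule markers.

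Among primary granule genes, *Elane*, neutrophil elastase, had 276, 283, 378 and 430 CPM in replicates 1 to 4. *Mpo*, myeloperoxidase, had 548, 527, 690 and 717 CPM. Both were higher in replicates 3 and 4, without overlap with replicates 1 and 2. This split is described for several genes and lists, and its share over all genes is not given here. *Prtn3*, the protease neighboring *Elane*, had 437 ± 74 CPM, *Ms4a3*, a membrane protein of granulocyte-monocyte progenitors, 307 ± 39.6, and *Ctsg*, cathepsin G, 210 ± 25.7. Per length the order was *Elane* (1018 ± 186 TPM), *Prtn3* (741 ± 96.2), *Ctsg* (597 ± 51.7), *Mpo* (532 ± 65.8) and *Ms4a3* (479 ± 43.2). These SDs are spreads between libraries, and the order held within each library.

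Among secondary granule genes, *Mmp8*, the neutrophil collagenase, had 1370 ± 118 CPM and *Cd177*, a neutrophil surface glycoprotein, 1181 ± 109. *Camp*, the precursor of the cathelicidin peptide, had 325, 390, 416 and 471 CPM in replicates 1 to 4 and was lowest in replicate 1. *Mmp9*, the gelatinase that also appears in osteoclasts, had 575 ± 39.6 CPM. Per length, *Camp* stood 2.92-fold above *Mpo* (log2 ratio 1.54 ± 0.15), *Ngp* 3.93-fold above *Ltf* (1.97 ± 0.06) and *Mmp8* 3.48-fold above *Mmp9* (1.80 ± 0.04), each in 4 of 4 libraries.

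Among mature neutrophil genes, *Ly6g*, the surface protein that defines the granulocytic gate, had 34.8, 36.7, 49.2 and 62.0 CPM in replicates 1 to 4. *Ly6g* thus reached 142 ± 33.7 TPM, as its exons span 942 bases. *Cxcr2*, the receptor for neutrophil-attracting chemokines, had 130 ± 20.5 CPM, *Il1r2*, the IL-1 decoy receptor, 451 ± 40.2, *Cxcr4*, the receptor that retains cells in marrow, 138 ± 16.2, and *Trem1* and *Fpr1*, an amplifying receptor and the formyl peptide receptor, 167 ± 7.92 and 151 ± 8.68. *Csf3r*, the receptor of the granulocyte factor G-CSF, had 144, 179, 151 and 129 CPM and was highest in replicate 2. *Stfa2l1*, a stefin-like protease inhibitor, reached 1169 ± 119 TPM from 166 ± 12.1 CPM, and it shares 24.6% of its 50-base stretches with related stefin genes. *Retnlg*, a resistin-like protein of neutrophils, had 36.0, 35.4, 53.5 and 73.4 CPM and was highest in replicate 4.

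**Figure D2:**
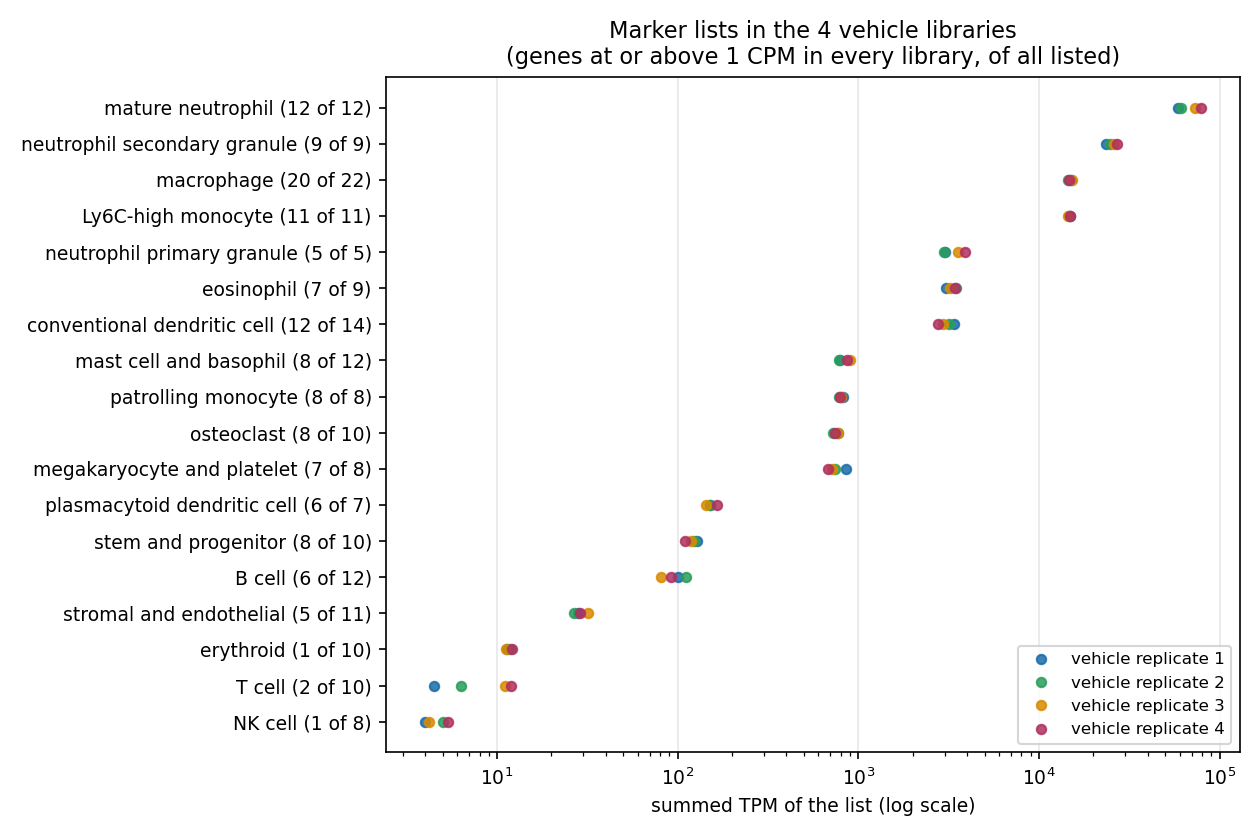
Summed TPM (log scale) of the 18 marker lists in the 4 vehicle libraries. Numbers beside each list give its genes at or above 1 CPM in every library and all its genes. The mature neutrophil list was highest in every library, at 58692 to 78867 TPM (3141 to 3327 TPM without *S100a8* and *S100a9*, below the secondary granule, macrophage and Ly6C-high monocyte lists), and the erythroid, T cell and NK cell lists were lowest, at 4.00 to 12.1 TPM.

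Monocyte and macrophage markers stood beside the granulocytic ones. The 11 genes of the Ly6C-high (classical) monocyte list summed to 14685 ± 235 TPM, of which *Chil3* made up 73.4%, and the 22 macrophage genes to 14825 ± 367 TPM, of which *Lyz2* made up 80.1%. The ratio of the macrophage sum to the monocyte sum was 1.01 ± 0.0307, and 0.759 ± 0.0601 without *Lyz2* and *Chil3*. These sums therefore rest mostly on 1 gene each, and neutrophil precursors also express *Chil3* and *Lyz2*.

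*Ly6c2* (ENSMUSG00000022584, chr15:75108158-75111970), which encodes the Ly6C antigen of classical monocytes, had 512, 487, 639 and 680 CPM in replicates 1 to 4. Replicates 3 and 4 were the higher. Its paralog *Ly6c1* (ENSMUSG00000079018, chr15:75044018-75048830) had 2.41, 3.18, 4.37 and 3.11 CPM, so that per length *Ly6c2* stood 110-fold higher (log2 ratio 6.78 ± 0.31; 5.82 with the longest transcript and 7.66 with the coding length). Of the 50-base stretches of *Ly6c1*, 21.5% also occur in *Ly6c2*. *Ccr2*, the receptor that brings classical monocytes out of marrow, had 279, 302, 383 and 420 CPM, and *Cx3cr1*, the receptor of patrolling monocytes, 10.1, 10.4, 7.58 and 7.45. The libraries high in *Ccr2* were low in *Cx3cr1*, and per length *Ccr2* was 25.9-fold higher (log2 ratio 4.69 ± 0.53).

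Other classical monocyte genes were also well expressed. *Hp*, haptoglobin, had 821 ± 72.6 CPM, *Fn1*, fibronectin, 1449.9 ± 115, *Gsr*, glutathione reductase, 526 ± 28.4, and *Plac8* 214 ± 40.2. *F13a1*, coagulation factor XIII of monocytes, had 67.2, 76.4, 184 and 208 CPM, so replicates 3 and 4 lay far above replicates 1 and 2. Of the patrolling monocyte list, *Treml4* and *Ace*, which define these cells, stood at 2.72 ± 0.954 and 1.93 ± 0.667 CPM, and the list summed to 799 ± 15.3 TPM, an amount carried by the widely expressed *Cd9*, *Spn* and *Itgal*. The classical list stood 18.4 ± 0.331 times above it, and 4.89 ± 0.286 times without *Chil3*.

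Macrophage genes covered a wide range of levels. Of the 22, 10 had at least 100 CPM in every library, 20 had at least 1 CPM and 2 had a mean below 1 CPM. Over all 54532 genes, 3.77% had at least 100 CPM and 21.9% at least 1 CPM in every library. *Csf1r*, the M-CSF receptor, had 939 ± 30.3 CPM, *Gpnmb*, a glycoprotein of lysosome-rich macrophages, 788 ± 91.0, *Msr1*, a scavenger receptor, 331 ± 24.8, *Cd68*, a lysosomal membrane protein, 234 ± 26.2, and *Adgre1*, which encodes F4/80, 203 ± 14.1. *Cd14*, the co-receptor for endotoxin, had 138, 137, 140 and 142 CPM and barely varied. *C1qb* stood at 134 ± 5.71 CPM, and the 3 chains of complement C1q kept nearly the same ratio, with *C1qb* 1.97-fold above *C1qa* per length (log2 ratio 0.98 ± 0.03) and 3.24-fold above *C1qc* (1.70 ± 0.09, but 1.01 with the longest transcript and 0.83 with the coding length). Of the markers of resident macrophages, *Vsig4* was at 0.106 ± 0.0621 CPM, *Timd4* had no read in replicates 1, 3 and 4, and *Cd163* and *Siglec1* stood at 2.99 ± 0.519 and 3.02 ± 0.496.

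Messages for the surface proteins in the study's gates were all detected, 8 of 8 at or above 1 CPM in every library. *Ptprc*, which encodes CD45, had 659 ± 77.5 CPM, *Itgam*, which encodes CD11b, 452 ± 26.0, and *Itgax* stood above *Itgam* per length in 4 of 4 libraries (log2 ratio of *Itgam* to *Itgax* -0.52 ± 0.02). Of the 50-base stretches of *Itgam*, 66.3% also occur in the overlapping gene model *Gm49368* of the annotation used for this check. The level of *Itgam* and its order with *Itgax* are therefore uncertain. Per length *Ly6c2* stood above *Ly6g* in each library (log2 ratio 2.15 ± 0.18, and 3.72 with the coding length).

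Osteoclast genes were partly expressed. *Dcstamp*, the fusion protein, had 69.7 ± 4.51 CPM, *Atp6v0d2*, a subunit of the proton pump, 50.9 ± 7.55, *Nfatc1*, the master factor, 115 ± 7.28, and *Itgb3* 119 ± 14.7. *Calcr*, the calcitonin receptor, had no read in any library, and *Oscar* stood at 0.142 ± 0.0834 CPM.

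Dendritic cell markers were unequal. *Ccl17* and *Ccl22*, chemokines that attract T cells, had 239 ± 12.8 and 472 ± 73.9 CPM, and *Ccl22* was higher in replicates 1 and 2 (553 and 516) than in replicates 3 and 4 (413 and 405). *Itgax*, which encodes CD11c, had 619 ± 33.6 CPM and *Mgl2*, a lectin, 291 ± 11.3. *Irf4*, a factor of type 2 dendritic cells, had 111 ± 10.7 CPM. Of the genes that define the lineage more narrowly, *Flt3* stood at 3.94 ± 0.316 CPM, *Xcr1* at 0.425 ± 0.187, *Clec9a* at 0.820 ± 0.379 and *Zbtb46* at 13.3 ± 0.647. For plasmacytoid cells, *Siglech* had 2.94 ± 0.370 CPM and *Klk1* 0.140 ± 0.121, and 87.7% of that list's sum was *Bst2*, which interferon induces in many cells.

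Eosinophil and basophil granule genes were clearly present. *Prg2*, the eosinophil major basic protein, had 514, 582, 577 and 661 CPM in replicates 1 to 4, which is 2048 ± 148 TPM and more than the granule genes *Elane* or *Mpo* per length. *Epx*, eosinophil peroxidase, had 508 ± 27.1 CPM. Of the eosinophil surface receptors in the list, *Siglecf* had 26.4 ± 2.22 CPM, *Ccr3* 0.741 ± 0.169 and *Il5ra* 0.733 ± 0.421. The ribonucleases *Ear1* and *Ear2* share 57.4% and 41.5% of their 50-base stretches with other genes of the family, so their levels are uncertain. *Prss34* and *Mcpt8*, proteases of basophils, had 148 ± 16.2 and 98.9 ± 14.7 CPM, whereas the mast cell proteases *Mcpt4*, *Cma1* and *Tpsab1* had no read in any library and *Tpsb2* was at 0.122 ± 0.0882 CPM.

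T cell, NK cell and erythroid markers were low. Of 10 T cell genes, 8 had a mean below 1 CPM, with *Cd3e* at 0.115 ± 0.0819, and the list summed to 4.66, 6.58, 9.19 and 10.8 CPM in replicates 1 to 4. Of 8 NK cell genes, 7 had a mean below 1 CPM, and *Ncr1* had reads only in replicate 4. Of 10 erythroid genes, 9 had a mean below 1 CPM, and *Hbb-bs* and *Slc4a1* had no read. B cell genes were higher, with 6 of 12 at or above 1 CPM in every library and a sum of 64.0 ± 7.77 CPM: *Ighm*, the heavy chain of IgM, had 38.4 ± 4.31 CPM and *Cd79a* 5.94 ± 1.84. *Pf4*, a platelet chemokine that macrophages also make, had 102 ± 8.37 CPM. Of the 11 stromal and endothelial genes 5 were at or above 1 CPM in every library, led by *Pecam1*, an adhesion molecule that leukocytes also carry (45.7 ± 7.16 CPM), and by *Lepr* and *Kdr* (6.56 ± 1.07 and 6.45 ± 0.865 CPM). In the same list *Pdgfra* had a mean of 0.0895 CPM, *Col3a1* had reads only in replicate 1 (0.573 CPM) and *Col1a2* only in replicates 1 and 2 (0.115 and 0.227 CPM), and *Cxcl12* and *Dcn* had no read.

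Progenitor genes were low but present. *Kit*, the stem cell factor receptor, had 47.0, 43.7, 48.7 and 42.6 CPM in replicates 1 to 4, *Cd34* had 25.1 ± 1.49 and *Myb*, a factor of immature cells, 54.3 ± 3.73. *Mecom*, a factor of stem cells, was detected only in replicate 3, at 0.0892 CPM, which is below the level of 3 counts. The primary granule list stood 28.4 ± 5.48 times above the progenitor list in summed TPM.

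Receptors for the supplied cytokines were very unequal. *Csf2rb* (ENSMUSG00000071713, chr15:78325752-78353847), the common beta chain, had 3307, 3185, 2767 and 2558 CPM in replicates 1 to 4. *Csf2rb2*, the mouse copy of the beta chain that serves IL-3, had 1078 ± 123 CPM, and *Csf2ra*, the GM-CSF specific alpha chain, had 211, 236, 198 and 181. Replicate 4 was lowest for all 3 genes. Per length, *Csf2rb* stood 5.64-fold above *Csf2ra* (log2 ratio 2.50 ± 0.09) and 1.78-fold above *Csf2rb2* (0.83 ± 0.03, and 1.42 with the coding length), and the beta chains share 12.3% and 18.4% of their 50-base stretches with each other.

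*Il6ra*, the IL-6 binding chain, had 97.4, 98.3, 91.8 and 77.7 CPM, and *Il6st*, which encodes gp130, had 124, 113, 116 and 86.0. Both were lowest in replicate 4, but with the length trend subtracted the log2 deviation there went from -0.23 to -0.10 for *Il6ra* and from -0.34 to -0.10 for *Il6st*. Per length they were nearly equal (log2 ratio of *Il6st* to *Il6ra* -0.10 ± 0.10), and the order turned to 0.25 with the longest transcript as the length and was -0.74 with the coding length. The 3 GM-CSF receptor genes summed to 2086 ± 310 TPM and the 2 IL-6 receptor genes to 60.5 ± 9.41 TPM, a ratio of 34.6 ± 2.15. Without *Csf2rb2* the sum was 1413 ± 211 TPM and the ratio 23.4 ± 1.51.

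Among other receptors, *Csf1r* stood 3.92-fold above *Csf3r* per length (log2 ratio 1.97 ± 0.21). *Il4ra*, the chain shared by IL-4 and IL-13 signaling, had 298, 296, 294 and 293 CPM and was among the 10 least variable genes. *Ifngr1* and *Ifngr2* of the interferon-gamma receptor had 147 ± 4.61 and 153 ± 8.74 CPM, and *Il10ra* had 140 ± 11.8. *Ccr1* led the chemokine receptors with 418 ± 59.1 CPM, and *Cxcr3*, a receptor of activated T cells, stood at 0.119 ± 0.0316.

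Downstream of these receptors, *Jak2*, the kinase bound to the beta chain, had 441, 461, 434 and 365 CPM in replicates 1 to 4 and led the signaling list per length (249.9 ± 32.5 TPM). *Jak1* had 394 ± 25.1 CPM, *Stat6* 263 ± 10.1, *Stat3* 259 ± 24.6 and *Stat5b* 103 ± 4.36. The feedback inhibitors of these pathways were expressed as well, with *Socs3*, an inhibitor of gp130, at 163 ± 3.88 CPM and *Cish*, a target of STAT5, at 160 ± 7.20. *Pim1*, a kinase induced by STAT3 and STAT5, had 253 ± 8.98 CPM. Per length *Socs3* stood above *Stat3* in 4 of 4 libraries (log2 ratio of *Stat3* to *Socs3* -1.06 ± 0.16).

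**Figure D3:**
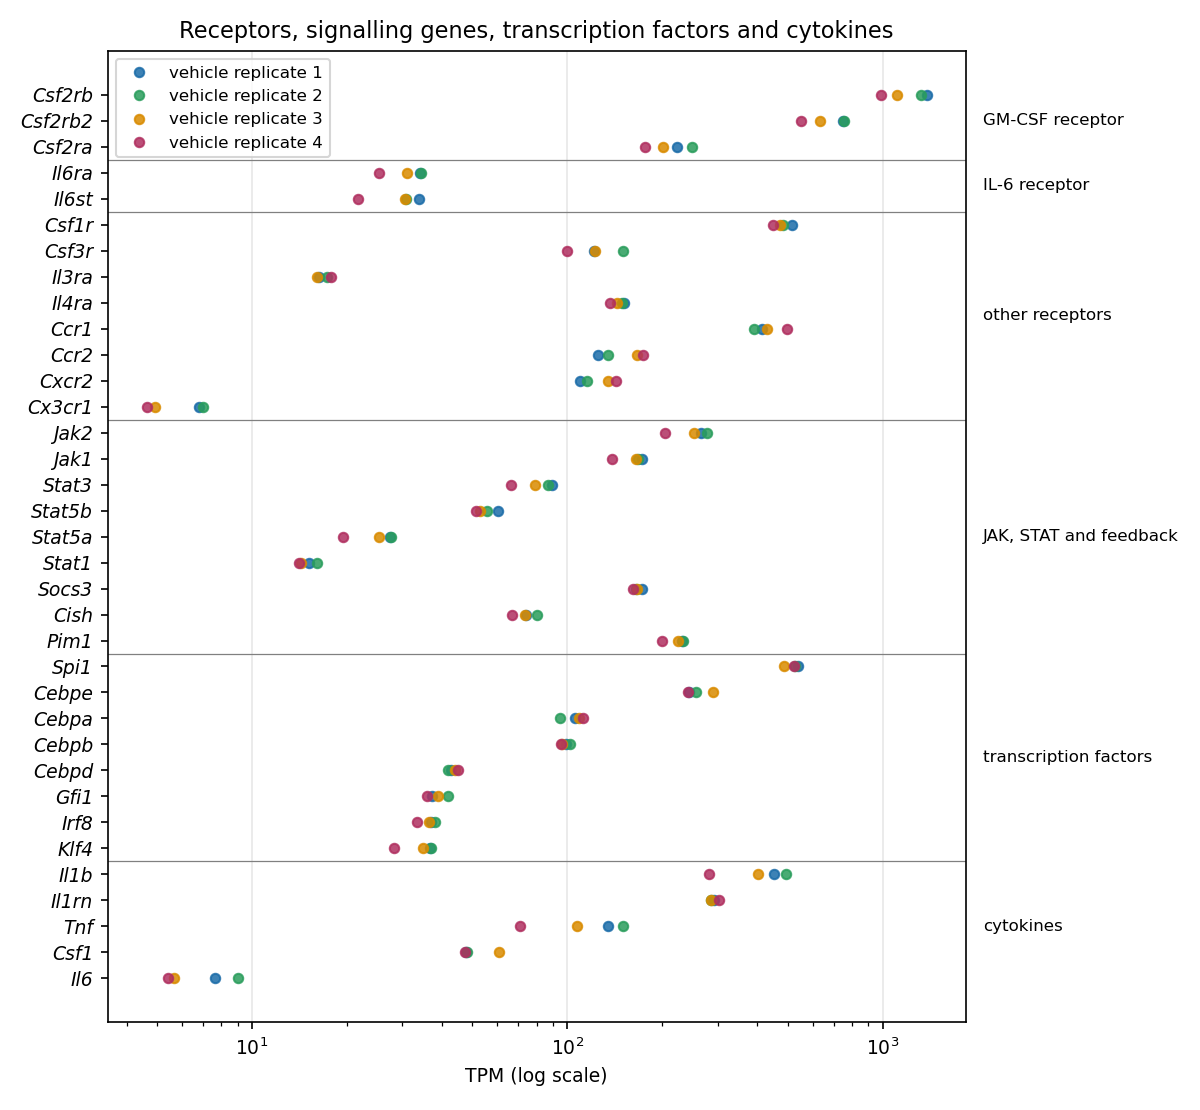
TPM (log scale) in each vehicle library of receptors, signaling genes, transcription factors and cytokines. *Csf2rb* stood at 1200.4 ± 183 TPM, whereas *Il6ra* and *Il6st* stood at 31.2 ± 4.29 and 29.3 ± 5.24 TPM.

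Transcription factors of the myeloid lineage were all expressed, 24 of 24 at or above 1 CPM in every library. In CPM their sum was the most even of all lists, at 3307 ± 13.6. In TPM it was 2753 ± 68.0, less even than the NADPH oxidase list at 4517 ± 27.8. *Spi1*, which encodes PU.1, led with 478, 470, 448 and 504 CPM and 519.6 ± 22.5 TPM. *Cebpe*, the C/EBP factor of secondary granule formation, had 109 ± 10.0 CPM and stood above *Cebpa* per length (log2 ratio of *Cebpa* to *Cebpe* -1.29 ± 0.16, and -0.56 with the coding length). Over all exons *Cebpb* and *Cebpa* lay within their spread (log2 ratio of *Cebpb* to *Cebpa* -0.10 ± 0.15), with *Cebpb* higher in 1 of 4 libraries. With the coding length this ratio was -0.63. *Irf8*, which favors monocytes and dendritic cells, had 86.6 ± 2.28 CPM and *Gfi1*, which favors granulocytes, 41.5 ± 2.11. Per length the log2 ratio of *Irf8* to *Gfi1* was -0.08 ± 0.05 over all exons, but *Irf8* was the higher with the longest transcript (0.78) or the coding length (1.27). *Id2*, an inhibitor of E proteins, had 328 ± 33.7 CPM, *Irf5* 258 ± 19.9, *Klf6* 328 ± 15.3 and *Rbpj*, the Notch effector, 379 ± 10.6.

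Mediators linked to suppressive myeloid cells differed in level and in evenness. *Nos2*, the inducible nitric oxide synthase, had 6.80, 11.9, 29.7 and 43.5 CPM in replicates 1 to 4. Replicates 3 and 4 lay above replicates 1 and 2. *Wfdc17*, a small secreted inhibitor, led the list per length with 758 ± 97.2 TPM, *Tgfb1* had 497 ± 29.1 CPM and *Clec4e* and *Clec4d*, lectins of myeloid cells, 209 ± 15.3 and 129 ± 5.91. *Cd274*, which encodes PD-L1, had 153, 164, 136 and 109 CPM and was lowest in replicate 4. *Il10* had reads only in replicate 2, at 0.0756 CPM, and *Ido1* stood at 0.304 ± 0.168 CPM.

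Of the alternative activation list, *Chil3* held 93.1% of the summed TPM. *Clec7a*, the beta-glucan receptor, had 447 ± 31.6 CPM, *Mrc1*, the mannose receptor, 153 ± 24.4 with replicate 3 highest at 188, and *Cd36* 109 ± 14.9. *Retnla*, a resistin-like protein of alternatively activated macrophages, stood at 0.569 ± 0.207 CPM, so that per length *Chil3* exceeded it 4077-fold (log2 ratio 11.99 ± 0.63). Similarly, *Lyz2* exceeded *Lyz1* 2304-fold per length (11.17 ± 0.19).

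**Figure D4:**
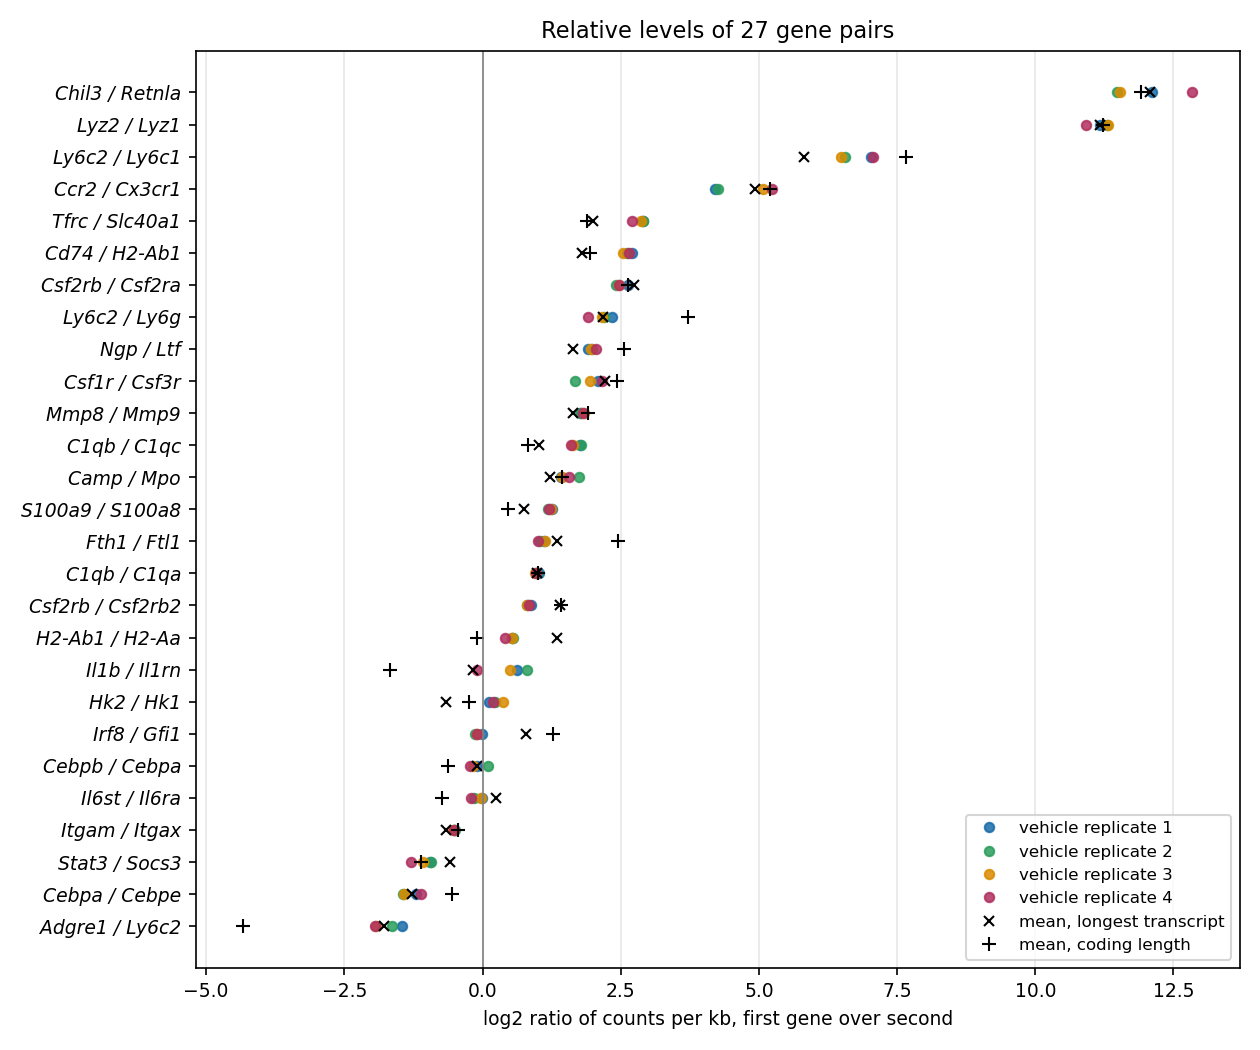
Log2 ratio of counts per kilobase, first gene over second, for 27 gene pairs in the 4 vehicle libraries; crosses and plus signs are means with the longest transcript or the coding length in place of all exons. Every pair but *Il1b* over *Il1rn* and *Cebpb* over *Cebpa* kept one order in the 4 libraries, and for *Irf8* over *Gfi1*, *H2-Ab1* over *H2-Aa*, *Il1b* over *Il1rn*, *Hk2* over *Hk1* and *Il6st* over *Il6ra* the order depends on the length used.

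Few inflammatory cytokines were made in quantity. *Il1b* had 284, 311, 262 and 192 CPM in replicates 1 to 4, and its antagonist *Il1rn* 532, 520, 541 and 596. The library with the lowest *Il1b* had the highest *Il1rn*. Per length *Il1b* was 1.37-fold above *Il1rn* (log2 ratio 0.45 ± 0.39), with the reverse in replicate 4 and with the longest transcript (-0.17) or the coding length (-1.68). *Tnf* had 72.6, 81.2, 60.2 and 41.5 CPM, again lowest in replicate 4. Of 17 cytokine genes, 8 had a mean below 1 CPM. *Il6* had 5.68 ± 1.23 CPM in cells that were given IL-6, and *Csf2*, which encodes GM-CSF, had no read in any library. *Ifnb1* had no read either, *Ifng* 2 counts in replicate 2 only, and *Csf3* had reads in replicate 1 only, at 0.306 CPM.

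Chemokine ligands were led by *Ccl6* (4547 ± 301 TPM), and *Ccl9* had 706 ± 55.3 CPM. *Cxcl2* and *Cxcl3*, which attract neutrophils, had 127 ± 56.1 and 178 ± 35.5 CPM. *Cxcl2* had 56.7 CPM in replicate 4, beside 150, 189 and 114 in the others. *Cxcl9* was found in replicate 4 only, at 0.0776 CPM. Of 12 interferon-stimulated genes, 1 had at least 100 CPM in every library, *Ifitm3* (477 ± 42.1 CPM), which made up 88.5% of that list's summed TPM.

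Among antigen presentation genes, those of MHC class II stood above the costimulatory ones. The median gene of the class II list had 191 TPM and that of the costimulatory list 24.5 TPM. The latter was near the median of 21.2 TPM over all genes at or above 1 CPM in every library. *Cd74* reached 4573 ± 182 TPM. The class II chains *H2-Aa*, *H2-Ab1* and *H2-Eb1* had 673 ± 84.7, 646 ± 59.1 and 488 ± 52.7 CPM and were higher in replicates 3 and 4 than in replicates 1 and 2. Per length *H2-Ab1* stood 1.42-fold above *H2-Aa* (log2 ratio 0.51 ± 0.07, and 1.36 with the longest transcript) but not with coding lengths (-0.10), and *Cd74* stood 6.18-fold above *H2-Ab1* (2.63 ± 0.07, but 1.80 with the longest transcript and 1.94 with the coding length). The 7 costimulatory genes were led by *Cd86* with 47.0 ± 1.14 CPM and summed to 146 ± 12.6 TPM, and the class II sum was 49.1 ± 6.44 times as high. *Cd74*, which is not itself an MHC chain, made up 64.4% of the class II sum. *H2-D1* and *H2-K1* of class I had 761 ± 65.0 and 514 ± 34.0 CPM and share stretches with related class I genes.

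The machinery of phagocytes was abundant. All 6 NADPH oxidase genes exceeded 100 CPM in every library, against 3.77% of all 54532 genes. Their sum varied little (4824 ± 42.3 CPM), with *Cybb*, the catalytic subunit, at 1999.5 ± 42.2 and *Ncf1* at 797 ± 33.0. Of the cathepsins, *Ctsb* had 1205 ± 104 CPM and *Ctss*, which trims the invariant chain, led per length with 1959 ± 222 TPM, whereas *Ctsk*, the osteoclast collagenase, had 4.24 ± 1.91 CPM. Among the Fc receptors, *Fcgr3* had 562 ± 38.7 CPM, *Fcgr2b*, the inhibitory one, 417 ± 16.2, and the signaling chain *Fcer1g* 391 ± 35.8. *Fth1* stood 2.10-fold above *Ftl1* per length (log2 ratio 1.07 ± 0.06, and 2.45 with the coding length), although 50.9% of the 50-base stretches of *Ftl1* occur in other genes, most of them pseudogenes.

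*Spp1* had 1460, 1306, 2147 and 2068 CPM, with replicates 3 and 4 higher. Glycolytic genes showed the same split: their sum was 12069, 11860, 14121 and 15320 CPM, and replicate 4 was highest for 10 of 13, against 31.9% of all detected genes. With the length trend subtracted it was highest for 9 of 13, against 35.2% of all genes so treated. *Aldoa* led per length (2042 ± 187 TPM), followed by *Ldha* (1660.1 ± 246 TPM) and *Pkm* (1584 ± 73.8 TPM), and the glucose transporter *Slc2a1* had 304, 311, 392 and 435 CPM. *Gapdh* had 246 ± 32.2 CPM, but 24.7% of its 50-base stretches occur in pseudogenes or other genes. *Hk2* and *Hk1* were close (log2 ratio 0.23 ± 0.11), and the order turned with the longest transcript (-0.65) or the coding length (-0.24).

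All 14 cell division genes were above 10 CPM in every library, against 15.6% of all 54532 genes. *Pcna*, the replication clamp, had 254 ± 14.9 CPM and *Top2a* 654 ± 77.2. The mitotic kinase *Cdk1* and its partner *Ccnb1* had 130 ± 8.36 and 124 ± 8.16 CPM. *Mki67*, which encodes the Ki-67 antigen, had 642, 978, 486 and 196 CPM, a 4.98-fold range. Of the 14 genes, 10 were highest in replicate 4, where *Mki67* and *Top2a* were lowest. With the length trend subtracted it was 6 of 14, near the 35.2% of all genes so treated. *Mki67* has 10061 bases of exon, and with the length trend subtracted its log2 deviation was still 0.90 in replicate 2 and -1.20 in replicate 4.

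Of the genes through which tryptophan metabolites can act, *Ahr*, the aryl hydrocarbon receptor, had 73.5 ± 9.35 CPM, and its partner *Arnt* 75.2 ± 4.72. *Tiparp*, a target of this receptor, was highest per length (48.8 ± 5.53 TPM), and *Ahrr*, the repressor, had 61.3 ± 11.7 CPM. *Cyp1a1*, the classical target in liver and barrier tissue, was at 0.115 ± 0.0829 CPM and *Cyp1b1* at 12.0 ± 2.91.

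Variation between the vehicle libraries was small for most genes. Over the 8875 genes that averaged 10 CPM or more, the median coefficient of variation (CV) was 8.71%, against 2.82% for counting alone, and 27 genes had a CV of 50% or more. The biological coefficient of variation, the spread beyond counting estimated by edgeR, was 0.134, and 0.0959 without replicate 4. The 10 steadiest genes with at least 100 CPM had a CV of at most 0.83%, led by the translation factor *Eif5* (323.7, 322.4, 323.4 and 323.5 CPM), and included *Rab14*, the cohesin genes *Rad21* and *Stag2*, *Sfpq* and *Il4ra*.

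Of the 15 most variable genes, 14 were highest in replicate 2 and lowest in replicate 4. *Malat1*, a nuclear noncoding RNA, had 113, 225, 78.6 and 34.4 CPM in replicates 1 to 4. *Neat1*, the noncoding RNA of nuclear paraspeckles, had 39.7, 89.7, 33.6 and 18.4, and *Xist*, the noncoding RNA of the inactive X chromosome, 249, 488, 195 and 89.9. The others were *Tspoap1*, *Lilrb4a*, *Dst*, *Syne2*, *Pde1b*, *Mapk8ip3*, *9930111J21Rik2*, *Stard9*, *Macf1*, *Syne1* and *Oas2*. *Syne1*, *Syne2*, *Dst* and *Macf1*, which encode giant linkers of the cytoskeleton, have 26726 to 41155 bases of exon. *Nos2* was the single exception among the 15, highest in replicate 4 and lowest in replicate 1.

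The length trend could be subtracted for 9 of these genes, those with at least 10 CPM in every library, and each stayed above its mean in replicate 2 and below it in replicate 4. After the median deviation of genes of like length was subtracted, *Malat1* deviated by 1.25 in replicate 2 and -1.31 in replicate 4 on the log2 scale, and *Lilrb4a*, an inhibitory receptor with 5227 bases of exon, by 1.17 and -1.25. For *Dst* the deviation in replicate 4 went from -1.57 to -1.33 and for *Syne1* from -1.18 to -0.94. The Y-linked *Ddx3y*, *Eif2s3y*, *Kdm5d* and *Uty* had no read in any library. What sets replicate 4 apart was not tested.

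**Figure D5:**
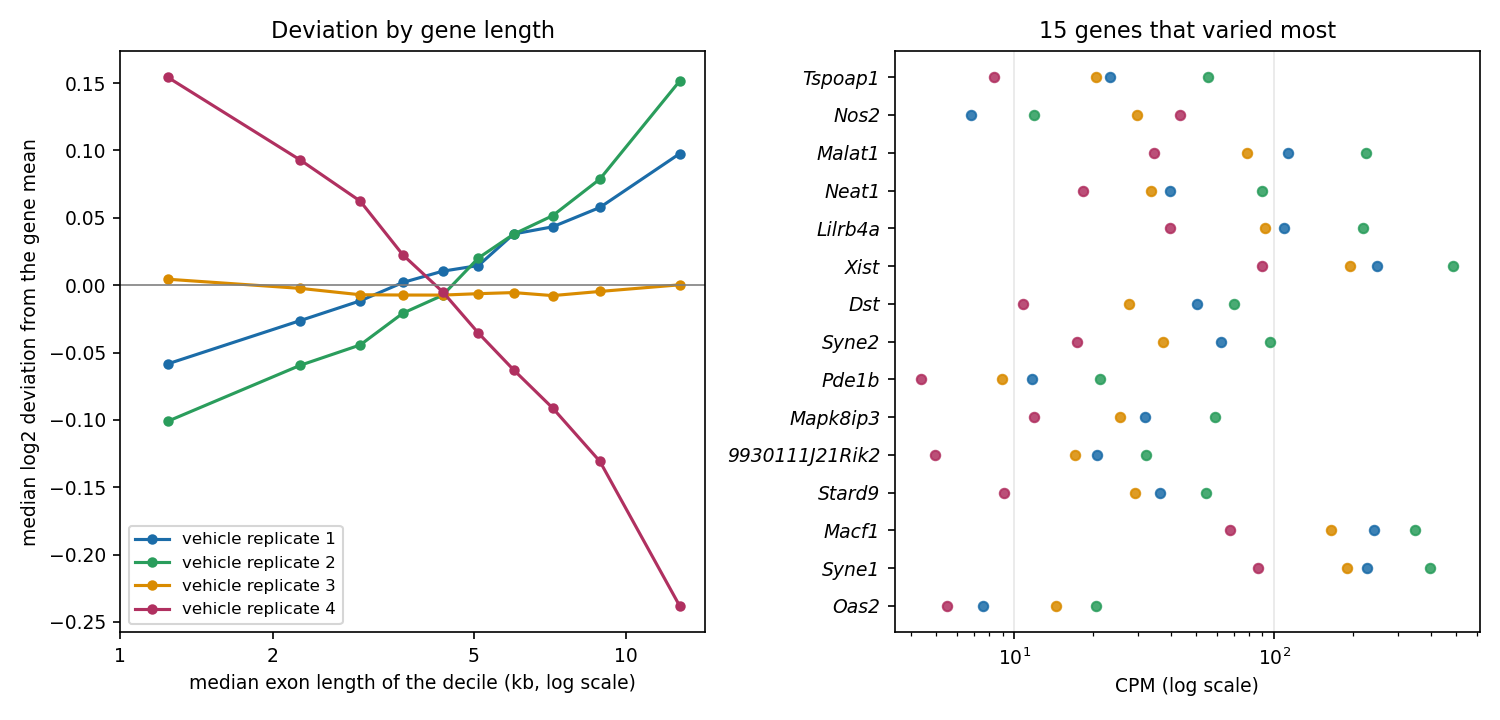
Left, median log2 deviation of genes from their mean over the 4 vehicle libraries, by exon length (log axis, kb) in 10 bins of 8500 genes. Right, CPM (log scale) of the 15 genes with the largest CV. Replicate 4 goes from 0.15 in the shortest bin to -0.24 in the longest, replicate 3 is flat, and replicate 2 has the highest value for 14 of the 15 genes at right.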

How the data were processed

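RNA-seq libraries of the vehicle group (4 libraries) were analysed from the raw gene counts that the authors deposited; the other 8 libraries of the series were not used here. According to the study's methods and processing notes, reads were trimmed with Atropos, aligned to mm10 with HISAT2 2.2.1 and assigned to Ensembl genes with featureCounts 2.0.1. The strand setting is not given in the sources used here, so overlapping and antisense genes may share reads.

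Counts were divided by the library total (CPM, main scale) or by the union of GENCODE M21 exons (TPM) in Python 3.11.15 with pandas 2.3.3. The biological coefficient of variation was estimated with edgeR 4.0.16 under TMM scaling, after it was tested on simulated data, and DESeq2 1.42.0 gave alternative size factors. No groups were compared. Dixon's test (critical value 0.829) was used for 1 library apart from the other 3. Sequence sharing was counted as identical 50-base stretches between transcripts of different genes. The length trend was subtracted as the median log2 deviation of genes in the same of 10 length bins, an alternative chosen after seeing the data. Other alternatives changed the scaling, the detection threshold, the denominator, the gene length or the libraries included.

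The 45 gene lists and 27 pairs were chosen with earlier results of these data known, and some items are not reported here. Genes were named by rule: the 25 highest by CPM and by TPM, list members by level (the highest per length, up to 6 with at least 100 CPM, and those below 1 CPM), both genes of each pair, and the 15 most and 10 least variable. Named in addition, after their values were seen, were Ace, Ahr, Ahrr, Arnt, Atp6v0d2, Ccnb1, Cd163, Cd34, Cd79a, Cdk1, Cish, Ctsk, Cxcl3, Cyp1b1, Dcstamp, Ear1, Ear2, F13a1, Flt3, Gapdh, Il6, Kdr, Kit, Lepr, Mcpt8, Msr1, Myb, Rbpj, Retnlg, Siglec1, Siglecf, Siglech, Slc2a1, Stat5b, Tnf, Trem1, Treml4, Zbtb46, mt-Atp6, mt-Co2, the Y-linked genes and the pseudogenes.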

Additional observations from a re-analysis of the deposited data

Results flagged for a closer look

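By Dixon's test, of 292 values examined for 1 library standing apart from the other 3, 8 (2.74%) did so, fewer than the about 1 in 20 that chance gives. Of these, 5 were in replicate 4. Fcer1g had 444.8 CPM in replicate 4 against 370.2 to 376 in the others, but with the length trend subtracted its log2 deviation there fell from 0.19 to 0.04, beside 0.03 in replicate 2. The log2 ratio per kilobase of H2-Ab1 to H2-Aa was 0.41 (0.4107) there, against 0.54 to 0.55. Also in replicate 4, the summed CPM of the genes that the study names as immature or progenitor was 9438 against 8571 to 8636, that of the plasmacytoid dendritic cell list 85.01 against 76.16 to 76.84, and that of the stem and progenitor list 196.3 against 207.3 to 209.2. With the length trend subtracted, the deviation in replicate 4 went from 0.21 to 0.06 for Bst2, which leads the plasmacytoid list, and the median deviation of the stem and progenitor genes with at least 10 CPM from -0.05 to -0.0020. In replicate 2, Ear1 had 48.94 CPM against 39.57 to 40.96, and Klf6 304.6 CPM against 334.4 to 335.7. In replicate 1, Csf1r had 983.9 CPM against 918.1 to 928.8, but with the length trend subtracted replicate 4 was the highest, at 0.04 on the log2 scale beside 0.03 in replicate 1.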

How the results depend on the processing

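No paired analysis was possible because no groups were compared. The number of detected genes (11920 to 13859), the share of counts in the 25 most abundant genes and the number of genes that hold 50% of counts stayed near their values under every alternative run. Of the 25 genes highest by CPM, 14 stayed among the 25 highest of all genes by TPM. With the 25 most abundant genes left out of the library total, which raises all CPM by construction, the summed CPM became 11874 for Ly6C-high monocyte, 1103 for patrolling monocyte, 9664 for macrophage, 1070.1 for osteoclast, 19667 for secondary granule, 2165 for conventional and 87.8 for plasmacytoid dendritic cell, 1457 for eosinophil, 529.6 for mast cell and basophil, 8.75 for erythroid, 337 for megakaryocyte, 229 for stem and progenitor and 70.8 for stromal and endothelial markers. The biological coefficient of variation was 0.119 for genes with at least 10 CPM in every library, 0.156 for all genes with a read, and 0.0959 to 0.156 with 1 library left out, lowest without replicate 4. The order within a pair turned with the gene length used. With the longest transcript the log2 ratio was 0.25 for Il6st over Il6ra, 0.78 for Irf8 over Gfi1, -0.17 for Il1b over Il1rn and -0.65 for Hk2 over Hk1. With the coding length it was 1.27 for Irf8 over Gfi1, -0.10 for H2-Ab1 over H2-Aa, -1.68 for Il1b over Il1rn and -0.24 for Hk2 over Hk1. Genes with under 3 counts in a library cannot be told from absent at this depth.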
